A study of Rattus norvegicus with 7 samples.

Results

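Genes of mitosis were followed in rat mesenchymal stem cells (rMSCs) 4 h after seeding on a culture plate or on polymer films. The members were 48 genes taken by symbol for their roles in mitotic entry, the spindle, the kinetochore and cytokinesis, and 41 of them have a row among the 17147 gene symbols of the files. The other 7 (Ncapg, Ncapd2, Ncaph, Bub1b, Spc24, Cenpe and Anln) were not analysed here. The cells were primary rMSCs from bone marrow, which the study's methods describe as isolated from a rat 6 weeks old of the Sprague-Dawley strain, and 20000 cells were seeded per specimen. The groups were uncoated tissue culture plate (TCP, 1 library), film of polycaprolactone (PCL, 3 libraries) and film of ISB-P, a polyurethane copolymer of PCL with propoxylated isosorbide (3 libraries). Films were 16 mm in diameter and sterilized by ethylene oxide gas. The libraries of both films carry the numbers 1 to 3, which are called replicate numbers here. The study describes repeated experiments with cells whose isolation it gives from a single rat, and the sources used here do not say whether libraries were separate cultures or what a number marks, so that p-values measure only the spread between these libraries, which may be technical.

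A dividing cell duplicates its DNA, condenses its chromosomes, attaches them to the spindle at kinetochores, and separates them once the spindle assembly checkpoint is satisfied. Most genes of these steps are transcribed late in the cell cycle and kept low in resting cells, so that their summed RNA follows the share of cycling cells in a culture. In bulk RNA, fewer cells in mitosis and less mitotic RNA per cell cannot be told apart. Values are FPKM, a level corrected for the length of the transcript and the size of the library, and differences are on log2(FPKM + 1), which makes the change of genes near 0 look smaller than it is.

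The cells on TCP held far less RNA of the mitosis genes than the cells on either film. All 41 members were lower in the TCP library than in each of the 6 film libraries, a pattern shown by 29.7% of the 9467 tested genes. Members ranged from 1.22 to 9.98 FPKM on TCP and from 5.41 to 119 FPKM on the films. Their summed level was 176 FPKM on TCP, 1217, 1317 and 1532 FPKM on PCL replicates 1, 2 and 3, and 1200, 1241 and 1660 FPKM on the same replicates of ISB-P. This was 0.0327% of all FPKM on TCP, between 0.224% and 0.256% on PCL, and between 0.202% and 0.251% on ISB-P. The median FPKM of all tested genes was 15.1 on TCP and between 15.3 and 17.2 on the films, in values that are already scaled to each library.

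All 41 members were over 2-fold higher on PCL than on TCP as the ratio of the PCL mean plus 1 to the TCP value plus 1, against 5.56% of tested genes. On ISB-P the count was again 41 of 41, against 8.98% of tested genes, and 0 members were over 2-fold lower on either film. Over both films, the median member was 6.44-fold higher than on TCP, or 8.26-fold without the added 1. The median log2 difference of the members was 2.71 for PCL and 2.60 for ISB-P, while the median of all tested genes was 0.07 and 0.08. Of the 162 tested genes that were over 4-fold higher on the films (1.71%), 38 were members, and of the 100 genes with the largest rise 32 were members. There is 1 TCP library here, although the study describes replicates for this experiment, and other TCP libraries were not analysed here, so that none of these differences has a replicate check or a test, and both comparisons share it.

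The log2 difference between the films and TCP had an SD of 0.41 over the members. Nuf2, a subunit of the kinetochore complex that grips microtubules, was highest at 9.41-fold and Incenp, the scaffold of the chromosomal passenger complex, lowest at 2.87-fold. Besides Incenp, Kif15 (3.31-fold) and Foxm1 (3.42-fold) were under 4-fold. The smallest ratio of any single film library to TCP, with 1 added to both, was 2.18, for Incenp in PCL replicate 2. The order of the members by level was similar on TCP and on the films, with a Spearman rho of 0.896 across the 41 genes, which share the libraries and are not independent.

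**Figure D1:**
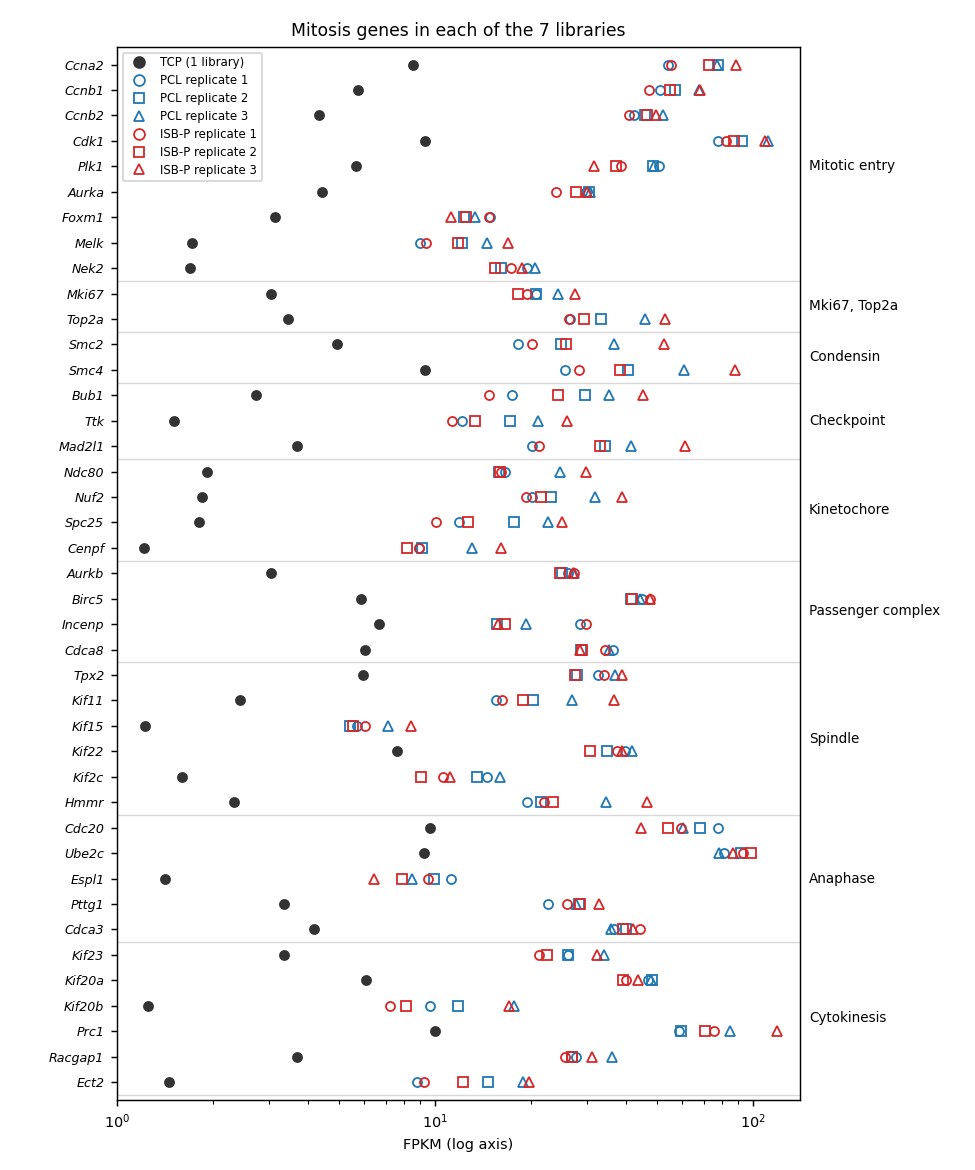
Each row is a mitosis gene with a row in the files, grouped by role, and each symbol its FPKM in 1 library on a log axis, with filled circles for TCP, blue for PCL, red for ISB-P and the symbol's shape for the replicate number. The TCP value lies left of all 6 film values in each of the 41 rows.

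Mitotic entry was represented by 9 genes, among them Cdk1, the kinase that drives cells into mitosis. Cdk1 was at 9.28 FPKM on TCP, at 77.9, 92.1 and 111 FPKM on PCL, and at 82.4, 86.9 and 109 FPKM on ISB-P. It was the most abundant member on the films, 9.17-fold above TCP, and its values on the films overlapped. Foxm1, a transcription factor of late cell cycle genes, was at 3.14 FPKM on TCP, at 14.9, 12.3 and 13.3 FPKM on PCL, and at 14.7, 12.5 and 11.2 FPKM on ISB-P. Melk, a kinase gene of dividing cells, was at 1.72 FPKM on TCP, at 8.96, 12.2 and 14.5 FPKM on PCL, and at 9.34, 11.8 and 16.9 FPKM on ISB-P. Foxm1 was thus low on all 3 surfaces compared with Cdk1, and Melk was lower still on TCP.

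Of the chromosome genes, Mki67, which coats mitotic chromosomes and is the usual marker of cycling cells, was at 3.05 FPKM on TCP, at 20.8, 20.8 and 24.3 FPKM on PCL, and at 19.4, 18.2 and 27.5 FPKM on ISB-P. Top2a, which untangles DNA before segregation, was at 3.45 FPKM on TCP, at 26.6, 33.2 and 45.7 FPKM on PCL, and at 26.3, 29.4 and 52.7 FPKM on ISB-P. Both were far below the films on TCP, by 5.64-fold for Mki67 and 8.25-fold for Top2a. Smc4, a core ATPase of condensin, was at 9.33 FPKM on TCP, at 25.6, 40.3 and 60.6 FPKM on PCL, and at 28.4, 38.2 and 87.9 FPKM on ISB-P. Its partner Smc2 was at 4.90 FPKM on TCP, at 18.2, 24.9 and 36.4 FPKM on PCL, and at 20.2, 25.8 and 52.7 FPKM on ISB-P. The condensin pair stood 4.63-fold (Smc4) and 5.20-fold (Smc2) above TCP, with the replicate 3 library the highest on each film.

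The checkpoint genes Bub1, Ttk and Mad2l1 hold back anaphase until all chromosomes are attached, and they were 7.10-fold to 7.72-fold higher on the films than on TCP. Mad2l1 was at 3.68 FPKM on TCP, at 20.2, 34.3 and 41.2 FPKM on PCL, and at 21.2, 33.1 and 61.0 FPKM on ISB-P. Bub1 was at 2.74 FPKM on TCP, at 17.4, 29.6 and 35.2 FPKM on PCL, and at 14.8, 24.3 and 45.0 FPKM on ISB-P. On each film, both were lowest in the library numbered 1 and highest in that numbered 3, and the TCP value was below the lowest film value of each. Of the 4 kinetochore genes, Spc25 was at 1.81 FPKM on TCP, at 11.9, 17.7 and 22.7 FPKM on PCL, and at 10.0, 12.7 and 25.1 FPKM on ISB-P. The 4 chromosomal passenger genes varied little on the films except for Incenp, which was at 6.66 FPKM on TCP, at 28.7, 15.7 and 19.3 FPKM on PCL, and at 29.8, 16.6 and 15.8 FPKM on ISB-P. Birc5 (survivin), the most abundant of this complex, was at 5.87 FPKM on TCP, at 44.8, 41.2 and 44.3 FPKM on PCL, and at 47.4, 41.6 and 47.5 FPKM on ISB-P.

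Anaphase is triggered by the anaphase-promoting complex (APC/C), a ubiquitin ligase that works with Cdc20 and the conjugating enzyme Ube2c. Ube2c was at 9.23 FPKM on TCP, at 81.2, 91.8 and 78.0 FPKM on PCL, and at 92.9, 98.5 and 86.8 FPKM on ISB-P. Cdc20 was at 9.65 FPKM on TCP, at 77.6, 68.1 and 60.4 FPKM on PCL, and at 59.4, 54.1 and 44.3 FPKM on ISB-P. The 13 measured core subunits of the same complex were not among the genes past 2-fold. The count was 0 of 13 on either film, beside 5.56% of tested genes on PCL and 8.98% on ISB-P, so that it is near the share of all tested genes. The median ratio of the subunits was 1.11, beside 1.06 for all tested genes. In cytokinesis, Prc1, which bundles microtubules of the central spindle, was at 9.98 FPKM on TCP, at 58.7, 59.3 and 84.9 FPKM on PCL, and at 75.3, 70.8 and 119 FPKM on ISB-P.

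Further cell cycle lists, chosen by function, were set against TCP in the same way, beside the 5.56% of tested genes over 2-fold higher on PCL and 8.98% on ISB-P. Of 57 other mitosis genes, 46 were over 2-fold higher on PCL and 47 on ISB-P, with a median ratio of 4.50 over both films. Pbk, a mitotic kinase gene, was the highest at 10.7-fold, from 1.39 FPKM on TCP to 24.5 FPKM on average on the films. Of 43 genes of DNA replication, 40 passed 2-fold on each film, with a median ratio of 3.14, from 0.98 for Gins2 to 9.79 for Rrm2, a subunit of ribonucleotide reductase. Of 11 cohesin genes, 3 on PCL and 5 on ISB-P passed, and of 14 genes of the MuvB and E2F regulators 5 and 6 passed, with median ratios of 1.62 and 1.53. Mybl2, the B-Myb factor of late cell cycle genes, was 5.11-fold higher on the films. Each list is a description of 1 TCP library against the films.

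Genes of G1 and CDK inhibitors did not share one direction. Of 13 tested, 3 (Ccne2, Cdk2 and Cdkn2c) were over 2-fold higher on each film. Over 2-fold higher on TCP were Cdkn2a, which encodes inhibitors that rise in ageing cultures, on both comparisons and Ccnd1 (cyclin D1) against ISB-P alone, beside 3.04% (against PCL) and 4.28% (against ISB-P) of tested genes. Cdkn2a was at 114 FPKM on TCP, at 65.0, 53.4 and 47.1 FPKM on PCL, and at 64.0, 53.6 and 37.8 FPKM on ISB-P. Cdkn1a, the p21 inhibitor, was at 298 FPKM on TCP and between 203 and 259 FPKM on the films.

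**Figure D2:**
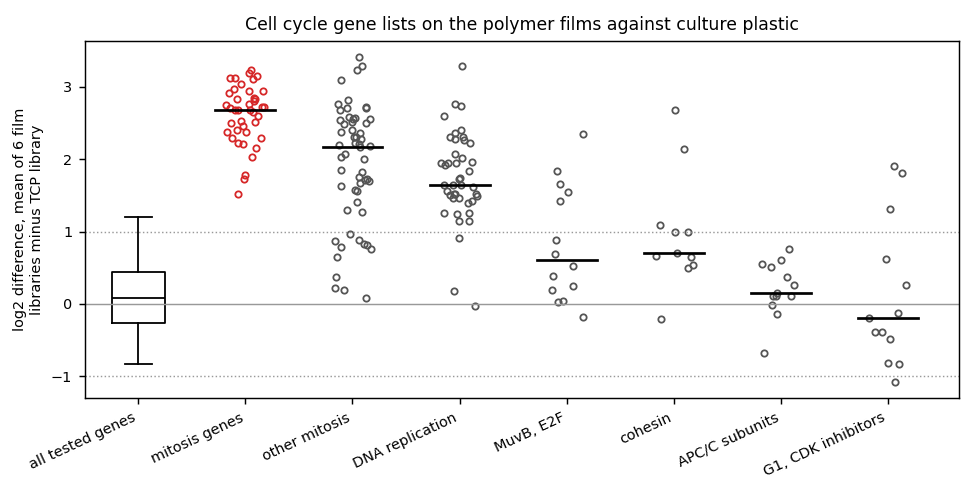
The vertical axis is the log2 difference between the mean of the 6 film libraries and the TCP library on log2(FPKM + 1), with a point per gene, a bar at each list's median, and a box for all 9467 tested genes (quartiles, whiskers from the 5th to the 95th percentile). All mitosis genes lie above the dotted line of 2-fold, with their median at 2.69, whereas the APC/C subunits have a median of 0.15.

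The cell type was checked against markers. Of the mesenchymal markers, Thy1 was at 1210 FPKM on TCP and 981 FPKM on average on the films. Eng and Vcam1 were at 19.2 and 32.8 FPKM on TCP and at 14.4 and 15.6 FPKM on average on the films. Higher on average on the films than on TCP were Itgb1 (722 against 481 FPKM), Cd44 (358 against 343 FPKM) and Nt5e (10.7 against 9.56 FPKM). Col1a2, although a gene of these cells, is listed at 0 in all 7, so that a 0 in these files can be a failed estimate. The 11 mesenchymal markers summed to 17880 FPKM on TCP and to between 8851 and 10973 FPKM on the films, and 6 of 11 were higher on TCP than in all film libraries (6 of the 10 that were tested), as were 25.4% of tested genes. Col1a1 was the most abundant, at 10406 FPKM on TCP and 5152 FPKM on average on the films. With Col3a1, at 5132 FPKM on TCP and 2579 FPKM on average on the films, it made up most of the sum. Leukocyte markers were also higher on TCP, where 12 of the 16 with a row were above all 6 film libraries (5 of the 5 that were tested) and their sum was 145 FPKM, against 45.0, 51.3 and 49.8 FPKM on PCL and 46.2, 51.5 and 51.0 FPKM on ISB-P. Lyz2 was the most abundant of them, at 72.9 FPKM on TCP and 21.8 FPKM on average on the films. The defining leukocyte gene Ptprc (CD45) was at 1.48 FPKM on TCP, and Cd3e and S100a9 are listed at 0 in all 7. Endothelial markers summed to 0.631 FPKM on TCP and the haemoglobin genes Hbb, Hba1 and Hba2 are listed at 0 in all 7 libraries. Most leukocyte markers and 6 of the 11 mesenchymal markers were thus higher on TCP, while the other mesenchymal markers were not. The part of either list in the difference between TCP and the films was not tested.

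Many promoters of the mitosis genes held the same short sequences. In textbook accounts, the repressor complex built on MuvB binds the cell cycle genes homology region (CHR), and NF-Y binds the CCAAT box, in promoters of late cell cycle genes. The CHR was searched as TTTGAA, as its reverse complement TTCAAA and as the palindrome TTCGAA. The CCAAT box was searched as CCAAT and as its reverse complement ATTGG, from 250 bases before to 50 bases after the start in RefSeq promoters of build GRCr8. Matches of both motifs may share a base. Of the 41 members, 34 have a promoter in that table, and Aurkb, Ccna2, Foxm1, Incenp, Racgap1, Tpx2 and Ube2c do not. A CHR match was found in 25 of the 34 (73.5%), against 13.5% of the 7207 tested genes with a promoter, and a CCAAT match in 26 (76.5%, against 38.6%). Both were found in 21 of the 34 (61.8%, against 5.65%). Of the 50 other mitosis genes with a promoter, 38% held both, and of the 36 replication genes 11.1%, while 0 of 11 APC/C subunits did. These are matches of letters, not sites.

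The 150 bases before the start are shown for 4 genes that differed in how they moved between films and replicate numbers as described below. Cdk1 was taken as the most abundant and Smc4 for the largest difference between replicate numbers. Cdc20 was called lower and Prc1 higher on ISB-P only when the fit was blocked on the replicate number. Capitals mark the matches. The stretches lie at chr20:19265143-19265292 (+ strand) for Cdk1, chr5:137255800-137255949 (- strand) for Cdc20, chr1:143659331-143659480 (+ strand) for Prc1 and chr2:155550112-155550261 (+ strand) for Smc4, all in GRCr8.
Cdk1: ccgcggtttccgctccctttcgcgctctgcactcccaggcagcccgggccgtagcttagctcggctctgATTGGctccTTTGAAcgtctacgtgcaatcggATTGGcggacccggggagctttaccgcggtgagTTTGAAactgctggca
Cdc20: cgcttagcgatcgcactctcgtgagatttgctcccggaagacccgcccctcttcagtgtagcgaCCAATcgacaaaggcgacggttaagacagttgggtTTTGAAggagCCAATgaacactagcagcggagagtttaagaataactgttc
Prc1: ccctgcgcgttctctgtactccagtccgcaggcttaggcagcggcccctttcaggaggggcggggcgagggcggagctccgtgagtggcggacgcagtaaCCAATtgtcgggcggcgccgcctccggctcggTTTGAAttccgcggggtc
Smc4: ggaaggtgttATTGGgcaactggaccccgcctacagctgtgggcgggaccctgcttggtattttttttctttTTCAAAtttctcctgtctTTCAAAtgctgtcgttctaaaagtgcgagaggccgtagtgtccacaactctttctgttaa
All 4 held both motifs in this window, with 2 CHR matches in Cdk1 and in Smc4.

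Between the films, no mitosis gene was called when the replicate number was left out of the fit. In limma, 0 of 41 members were higher on ISB-P (1.1% of tested genes were) and 0 were lower (0.623%) at an adjusted p under 0.05, and 2 (Plk1 and Kif2c) had an unadjusted p under 0.05 (12.1% of tested genes did). The median log2 difference of the members was -0.03, beside 0.02 for all tested genes, and 22 of 41 had a lower mean on ISB-P, as did 47.1% of tested genes. The means of the members on PCL and ISB-P had a Spearman rho of 0.971 across the 41 genes. Cdk1 differed by -0.01 (SE 0.18) and Mki67 by -0.03 (SE 0.18).

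Plk1, Kif2c, Cdc20 and Kif20a were lower on all 3 ISB-P libraries than on all 3 PCL libraries, which is 9.76% of the members against 9.54% of tested genes, and 0 members were higher without overlap (8.17%). Plk1, the polo-like kinase of mitotic entry, was at 50.7, 48.3 and 48.7 FPKM on PCL and at 38.5, 37.0 and 31.6 FPKM on ISB-P. Its mean was 49.2 ± 1.26 FPKM (SD, n = 3) on PCL and 35.7 ± 3.61 FPKM (SD, n = 3) on ISB-P, and the groups did not overlap. The log2 difference was -0.46 (SE 0.13, adjusted p = 0.178 in limma). Kif2c, a kinesin that depolymerizes microtubules, was at 14.6, 13.5 and 16.0 FPKM on PCL and at 10.6, 9.05 and 11.1 FPKM on ISB-P, a log2 difference of -0.48 (SE 0.13, adjusted p = 0.173 in limma). Cdc20, with the values given above, had a log2 difference of -0.38 (SE 0.16, adjusted p = 0.426 in limma). The exact two-sided permutation p was 0.1 for each of Plk1, Kif2c and Cdc20, which is the smallest that 3 libraries against 3 allow. Groups of this size that do not overlap always give this value, so that it adds nothing to the lack of overlap. By the same test the p was 0.2 for Espl1 and 0.3 for Prc1, which are taken up below.

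Plk1 differed by -0.39, -0.38 and -0.61 on the log2 scale within replicate numbers 1, 2 and 3, Kif2c by -0.43, -0.53 and -0.49, Cdc20 by -0.38, -0.33 and -0.44, and Kif20a by -0.22, -0.29 and -0.14. When the limma fit was blocked on that number, 4 members were lower and 1 higher on ISB-P, where 11.4% of tested genes were lower and 13% higher. The 4 were Plk1 (adjusted p = 0.00412), Kif2c (adjusted p = 0.00324), Cdc20 (adjusted p = 0.00546) and Espl1 (adjusted p = 0.0317), and the 1 was Prc1 (adjusted p = 0.00866). Espl1 encodes separase, the protease that cuts cohesin at anaphase, and was at 11.2, 9.90 and 8.44 FPKM on PCL and at 9.47, 7.89 and 6.41 FPKM on ISB-P. Within replicate numbers 1, 2 and 3 its log2 differences were -0.23, -0.29 and -0.35. Prc1 was higher on ISB-P within each number, by log2 differences of 0.35, 0.25 and 0.48, while its values overlapped between the films as groups. Counted by sign, 11 members were lower in all 3 pairs (27.7% of tested genes) and 7 were higher in all 3 (30.5%). The members called with the block are 9.76% lower and 2.44% higher, under the shares of tested genes in both directions.

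**Figure D3:**
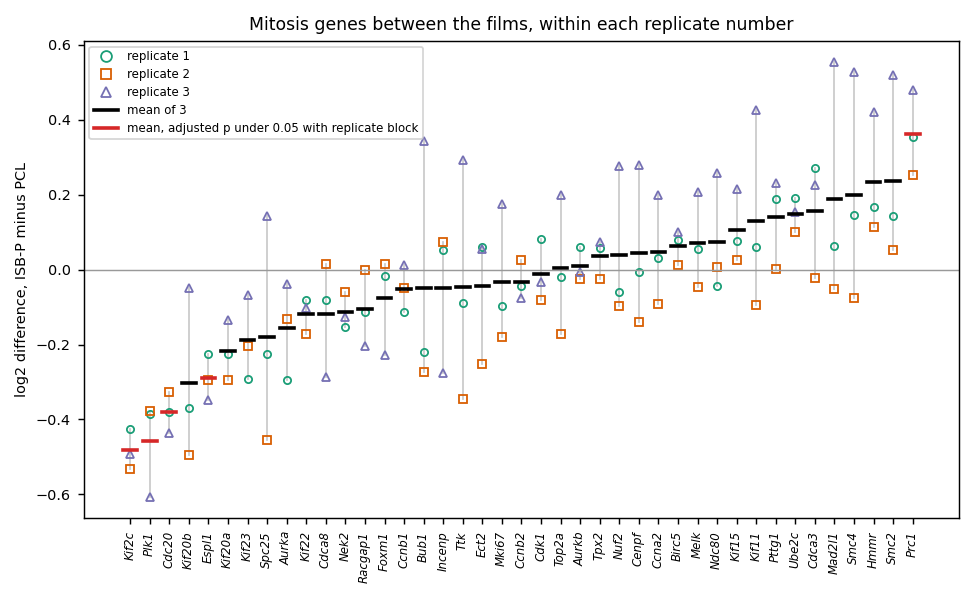
The vertical axis is the log2 difference between ISB-P and PCL on log2(FPKM + 1), with a symbol per replicate number and a bar at the mean of 3 for each of the 41 mitosis genes, in order of that mean. The bars run from -0.48 for Kif2c to 0.36 for Prc1, and red bars mark the 5 genes with an adjusted p under 0.05 with the replicate block.

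No gene of the other cell cycle lists was called between the films in limma without the block. At an unadjusted p under 0.05, which 12.1% of tested genes passed, there were 3 of 57 other mitosis genes, 2 of 14 of the MuvB and E2F list, 3 of 13 G1 and CDK inhibitor genes, and 0 of the APC/C, cohesin and DNA replication lists. With the block, beside 13% of tested genes higher and 11.4% lower, 8 of 57 other mitosis genes were higher and 7 lower, 3 of 43 replication genes were higher and 1 lower, and 3 of 14 MuvB and E2F genes were higher and 1 lower. Of 13 G1 and CDK inhibitor genes 2 were higher and 5 lower, of 11 cohesin genes 2 were higher, and of 13 APC/C subunits 1 was lower. The extremes of other mitosis were Cenpk, a kinetochore gene, at 0.54 (SE 0.43, adjusted p = 0.784, and 0.0289 with the block) and Fam83d at -0.46 (SE 0.16, adjusted p = 0.301, and 0.00497 with the block). Those of the G1 list were Ccne2 (cyclin E2) at 0.62 (SE 0.45, adjusted p = 0.755, and 0.00987 with the block) and Cdkn1b, the p27 inhibitor, at -0.53 (SE 0.17, adjusted p = 0.256, and 0.00263 with the block). In DNA replication they were Cdt1, a licensing factor, at 0.52 and Pola2 at -0.34 (adjusted p = 0.422 and 0.516, and 0.00398 and 0.0374 with the block). In the MuvB and E2F list they were Nfya at 0.45 and Rbl2 at -0.42 (adjusted p = 0.277 and 0.527, and 0.0143 and 0.0171 with the block). Cohesin ran from -0.12 for Esco1 to 0.43 for Stag2 (adjusted p = 0.540 and 0.0184 with the block), and the APC/C subunits from -0.46 for Cdc26 to 0.27 for Anapc13 (adjusted p = 0.00431 and 0.0747 with the block).

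Most members differed between the replicate numbers, in the same direction on both films. In a limma fit with film and replicate number, 30 of 41 members (73.2%) differed over the 3 numbers (F-test, adjusted p under 0.05), beside 58.4% of tested genes. On both films, replicate 3 was above replicate 1 for 31 members (51.5% of tested genes) and below it for 8 (37%). Replicate 3 was higher than replicate 1 for 25 members (38.5% of tested genes were) and lower for 3 (23.2% were). The median log2 difference of the members was 0.35, beside 0.09 for all tested genes, and was 0.37 on PCL and 0.42 on ISB-P taken alone. Both replicate 3 libraries were above both replicate 1 libraries for 27 of 41 members, beside 42.9% of tested genes. Between numbers 2 and 1, 7 members were higher (16.8%) and 1 lower (8.51%), and between 3 and 2, 25 were higher (21.6%) and 0 lower (6.19%), with 3 lower at an unadjusted p under 0.05 (12.1%). This fit has 2 libraries per number and 2 residual degrees of freedom.

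Among roles of the members, the median difference was largest in the condensin pair and the 3 checkpoint genes. Other mitosis genes of these roles did not all follow. From replicate 1 to 3, the condensin gene Ncaph2 fell from 23.7 to 18.4 FPKM on PCL and from 26.9 to 17.8 FPKM on ISB-P. Ncapd3, also of condensin, rose to 8.52 FPKM on PCL and from 6.23 to 8.67 FPKM on ISB-P. Bub3, of the checkpoint, rose from 56.8 to 69.3 FPKM on PCL and to 70.9 FPKM on ISB-P. Mad1l1 fell, as given below. Smc4 had a log2 difference of replicate 3 minus replicate 1 of 1.40 (SE 0.13), Bub1 of 1.26 (SE 0.15), Mad2l1 of 1.24 (SE 0.14) and Smc2 of 1.15 (SE 0.12), with adjusted p of 0.000178, 0.000225, 0.000204 and 0.000182 in limma. The counts by role stand beside 38.5% of tested genes called higher in replicate 3 than in replicate 1. All 4 kinetochore genes were called higher, from 0.65 (SE 0.12) for Cenpf to 1.06 (SE 0.14) for Spc25, as were all 3 checkpoint genes. In cytokinesis 5 of 6 were called higher, led by Ect2, the exchange factor that activates RhoA at the cleavage furrow, at 1.03 (SE 0.11), with Kif20a at 0.08 (SE 0.09) not called. Mitotic entry had 5 of 9 called higher, with Melk at 0.72 (SE 0.10) and Cdk1 at 0.45 (SE 0.08). Of the spindle genes 3 of 6 were called higher, with Kif11, the kinesin that pushes spindle poles apart, at 0.94 (SE 0.13) and Kif22 at 0.06 (SE 0.09).

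Other members went the opposite way or moved little. Incenp fell by 0.71 on the log2 scale (SE 0.11, adjusted p = 0.000778 in limma), Espl1 fell by 0.44 (SE 0.10, adjusted p = 0.00487) and Cdc20 fell by 0.38 (SE 0.08, adjusted p = 0.00412). Pttg1 (securin, the inhibitor of separase) was higher by 0.30 (SE 0.10, adjusted p = 0.0234), the sole one of 5 anaphase genes called higher. Without ISB-P replicate 1, which leaves number 1 with 1 library whose spread is assumed to be like that of the others, the calls of Espl1 (-0.39, adjusted p = 0.0722), Cdc20 (-0.38, adjusted p = 0.0689) and Pttg1 (0.34, adjusted p = 0.125) were lost. Without PCL replicate 1 those of Cdc20 (-0.39, adjusted p = 0.0593) and Pttg1 (0.27, adjusted p = 0.218) were lost. In these fits the SE was 0.18 for each gene, larger than with all libraries. None of the 4 passenger complex genes was called higher, with a median of -0.07, and Birc5 was at -0.01 (SE 0.09) and Aurkb at 0.03 (SE 0.09). The medians by role ran from -0.08 for anaphase and -0.07 for the passenger complex through 0.27 for the spindle, 0.29 for entry, 0.53 for cytokinesis, 0.61 for Mki67 and Top2a and 0.75 for the kinetochore to 1.24 for the checkpoint and 1.28 for condensin.

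Scaling between libraries bears on the number of members in each direction. The FPKM of a library summed to 542921, 559058 and 597954 on PCL and to 592929, 590628 and 660124 on ISB-P in the order of the numbers, and to 539393 on TCP. With upper quartile scaling, 20 members were higher and 9 lower in replicate 3 than in replicate 1, while all tested genes turned from 38.5% higher and 23.2% lower to 26.8% higher and 37.8% lower. That scaling moved the median of all tested genes from 0.09 to -0.10, and the members' median to 0.15. Aurkb, Kif22 and Kif20a were below 0 with it, and the calls of Mki67 and Pttg1 were lost (adjusted p = 0.267 and 0.415 in limma). Both were also lost with quantile normalization (adjusted p = 0.133 and 0.279) and with scaling to a common total (adjusted p = 0.106 and 0.143). Mki67, at 0.35 (SE 0.11, adjusted p = 0.0213) as deposited, was also not called with no filter on low values (adjusted p = 0.0520). Its difference was unchanged without the filter, at 0.35. It fell to 0.13 with upper quartile scaling, 0.18 with quantile normalization and 0.21 with scaling to a common total. Without PCL replicate 1 it was 0.39, and without ISB-P replicate 1 it was 0.30. Mki67 was not called in either fit, each of which leaves number 1 with 1 library. With a library left out, its difference ranged from 0.19 (without ISB-P replicate 3, also not called) to 0.50 (without PCL replicate 3). Over the alternatives tried Smc4 ranged from 1.16 to 1.65, Bub1 from 0.96 to 1.55, Smc2 from 0.93 to 1.36 and Spc25 from 0.82 to 1.30. Each kept an adjusted p under 0.05 in limma in the alternatives that used all 6 film libraries. With a library left out, a number keeps 1 library whose spread is assumed to be like that of the others. For these fits only the range of the difference is given.

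**Figure D4:**
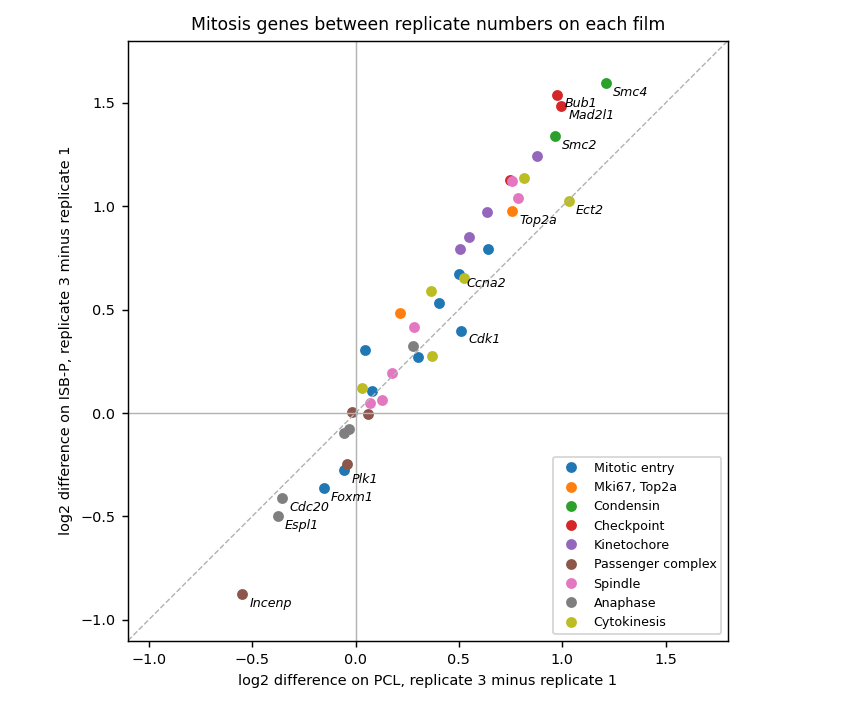
Each point is 1 of the 41 mitosis genes, with the log2 difference of replicate 3 minus replicate 1 on PCL on the horizontal axis, the same on ISB-P on the vertical axis, colour for the role and a dashed line of equal values. Members lie at the upper right for 31 genes and at the lower left for 8, with Smc4 at 1.21 on PCL and 1.59 on ISB-P and Incenp at -0.55 and -0.88.

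Members of other lists also differed by replicate number. In the same fit, where 38.5% of tested genes were higher and 23.2% lower in replicate 3 than in replicate 1, 31 of 57 other mitosis genes were higher and 12 lower in replicate 3, 9 of 11 cohesin genes were higher, 7 of 13 APC/C subunits were higher and 1 lower, and 20 of 43 replication genes were higher and 7 lower. Of 14 MuvB and E2F genes 6 were higher and 4 lower, and of 13 G1 and CDK inhibitor genes 4 were higher and 2 lower, with a median of 0.00 for each list. Esco1, an acetyltransferase of cohesin, reached 1.60 (SE 0.16) and Casc5, a kinetochore scaffold gene, 1.44 (SE 0.15), while Mad1l1, a checkpoint gene, fell by 0.79 (SE 0.12). Across the 41 members, the genomic length in GRCr8 and the difference of replicate 3 minus replicate 1 had a Spearman rho of 0.526, beside 0.238 across the 8696 tested genes with a length. Genes share the libraries, and genomic length includes introns, so that these are descriptions. The mesenchymal markers went both ways, with 5 of 10 tested higher and 4 lower in replicate 3 than in replicate 1 and a median of 0.12, from -0.51 for Col1a1 to 1.03 for Itgb1. RNA quality and the number of attached cells per library were not given in the sources used here, and their part in the order was not tested.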

How the data were processed

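RNA of rMSCs at 4 h was sequenced as 7 stranded mRNA libraries. The submitters' processing notes name bcl2fastq 2.20.0.422, cutadapt 1.18, TopHat2 2.0.13, Cuffdiff 2.2.1 and genome build rn5, with no role given, and the methods add ExDEGA. For every library, the authors deposited the FPKM of 17147 symbols. The unit was read from Cuffdiff and from the values, the read depth of each library is unknown, and precision rests on the 3 libraries per film. Values were used as deposited.

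The 9467 genes that reached 1 FPKM in 3 or more film libraries were tested on log2(FPKM + 1) with limma 3.58.1 in R 4.3.3 (trend, two-sided, Benjamini-Hochberg adjustment over all tested genes). One fit compared ISB-P with PCL, and another had film and replicate number. TCP was compared by ratios, with no test. Same-numbered libraries of the films deviated together (r = 0.887, 0.431 and 0.867 across tested genes, each over 0.1), so the numbers were taken as pairs from the labels and this check. Differently numbered libraries had r from -0.836 to 0.177, so that PCL replicate 2 with ISB-P replicate 3 was over 0.1 too. Deviations from a mean of 3 libraries lean to negative r across numbers. The check used the same data as the fits with the replicate number. On simulated data for 9467 genes, the ISB-P against PCL fit recovered 50% of genes changed by 1 and 94% of those changed by 2 on the log2 scale. The replicate 3 against replicate 1 fit recovered 75% and 97%, and each fit made 2 false calls. The simulated noise was independent between libraries, unlike the deviations shared by same-numbered libraries. Both changes exceed the members' differences between the films (-0.48 to 0.36), so that the rates do not cover differences of that size.

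Members and lists were chosen with earlier results of these data known. In each role group, the genes named are the most abundant on the films, the highest and lowest for replicate 3 minus replicate 1 and the largest difference between films. In other lists they are the extremes of both differences. Kif15, Pbk, Gins2, Rrm2, Mybl2, Ncaph2, Ncapd3, Bub3 and the G1 genes other than Cdkn1b and Ccne2 were chosen after their values were seen. Alternatives were other scalings, filters, pseudocount 0.1, no trend, TCP in the fit, the replicate block and each library left out. Python 3.11.15 and matplotlib 3.10.9 drew the figures. Promoters and gene lengths came from RefSeq tables of GRCr8, a build other than that of the files, and were matched by symbol.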

Additional observations from a re-analysis of the deposited data

How the results depend on the processing

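The counts of members over 2-fold higher on each film than on TCP were 41 under every alternative run. Their median log2 differences moved with a pseudocount of 0.1, to 3.05 for PCL and 3.06 for ISB-P. Between the films, the replicate block moved the counts of calls from 0 to 1 higher and 4 lower, and no other alternative gave a call. The median log2 difference of ISB-P minus PCL was -0.15 with scaling to a common total and ranged from -0.19 (without ISB-P replicate 3) to 0.10 (without PCL replicate 3) with a library left out, and was 0.07 without ISB-P replicate 1. In those fits the differences changed sign, with none of them called, for Mki67 (-0.210 to 0.0755), Smc2 (-0.152 to 0.517), Mad2l1 (-0.203 to 0.539) and Spc25 (-0.542 to 0.0790). The cause was not tested. Genes called with the block kept their sign when a library was left out, in fits without the block. Prc1 ranged from 0.13 (without ISB-P replicate 3) to 0.53 (without PCL replicate 3). Espl1 ranged from -0.41 (without ISB-P replicate 1) to -0.16 (without ISB-P replicate 3). Plk1 ranged from -0.51 to -0.37, Kif2c from -0.54 to -0.40 and Cdc20 from -0.47 to -0.27.

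Members higher in replicate 3 than in replicate 1 stayed between 19 and 27. The number lower was 9 with upper quartile scaling, 9 with quantile normalization and 7 with scaling to a common total, where 37.8%, 33.9% and 32.9% of tested genes were lower and 26.8%, 30.6% and 30.6% higher. It ranged from 1 (without ISB-P replicate 1) to 6 (without PCL replicate 3) with a library left out. The members' median was 0.15, 0.23 and 0.22 with these scalings in turn. They turned the sign of genes not called, Aurkb (-0.189, -0.152 and -0.113), Kif22 (-0.158, -0.155 and -0.0821) and Kif20a (-0.144, -0.161 and -0.0676). With a library left out, Aurkb ranged from -0.0103 (without PCL replicate 1) to 0.0669 (without ISB-P replicate 1). Foxm1, at -0.259 (adjusted p = 0.0545 in limma) as deposited, was called lower with each of these scalings (-0.468, -0.373 and -0.395). With a filter at 5 FPKM it was called at an unchanged difference (-0.259, adjusted p = 0.0489 in limma). With a library left out, Foxm1 ranged from -0.372 (without PCL replicate 3) to -0.146 (without ISB-P replicate 3). The read depth is unknown, so that no limit from depth is given.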
